A study of Homo sapiens with 8 samples.

Results

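The change in promoter OGAP signal that accompanied NuMA depletion, after the change in input DNA was taken away, was measured in RPE1 cells over all 19957 promoter windows of the deposited table, and 17130 of these held enough reads to be tested. RPE1 is a human cell line derived from retinal pigment epithelium and immortalised with telomerase (hTERT). OGAP-seq captures DNA fragments that carry oxidative base damage, and input is DNA of the same kind of cells sequenced without that capture. The 4 groups of 2 libraries each were OGAP and input of RPE1 cells without doxycycline, which the labels call wild type (WT), and OGAP and input of RPE1 cells after doxycycline, labelled NuMA (TDIF)-KD. TDIF is the second name that the labels give to NuMA. All 8 libraries came from the one cell line. Only the KD cells had doxycycline, so doxycycline and depletion cannot be told apart. The labels do not say how depletion was driven, how long it lasted, or whether replicate libraries stem from different cultures. A p-value here thus reflects only how far these libraries varied, and that variation may be technical. In the test of single windows it was mostly estimated over all windows together, and little from the libraries of the window itself. The libraries are DNA, so the depletion and the labelled tissue could not be checked in them.

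Guanine is the base most easily oxidised, and its common product, 8-oxoguanine, is removed by the glycosylase OGG1 in the first step of base excision repair. Removal leaves an abasic site, which an endonuclease cuts and a polymerase and ligase fill and seal, with PARP enzymes marking the open strand. OGAP-seq reads sites of this pathway by turning oxidised bases into abasic sites that can be tagged. NuMA is a large nuclear protein that gathers microtubules at the spindle poles in mitosis and lies in the nucleus between divisions. The series asks how its depletion bears on oxidative damage along the genome.

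For each window the KD effect was the log2 ratio of OGAP to input in KD cells minus the same ratio in WT cells. A value of 1 is a doubling of OGAP over input in KD cells. It equals the log2 change of OGAP from WT to KD, the OGAP part, minus the log2 change of input. Across the windows the KD effect was centred near 0. Its median was 0.02, its quartiles were -0.41 and 0.44, and 51.1% of windows were positive. A single window, at AKIRIN1, passed an adjusted p of 0.05 (edgeR quasi-likelihood F test, Benjamini-Hochberg over all windows), which is 0.00584% of those tested, and it was higher in KD. No window passed in the lower direction, and none in either direction by DESeq2 or limma-voom. At an unadjusted p under 0.05 there were 1395 windows (8.14%), 680 higher in KD (3.97%) and 715 lower (4.17%).

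Promoter sequences are shown for windows at the ends of the range, because GC content is the sequence feature along which the KD effect was ordered below. Each is the 250 bases before the annotated start, 5′ to 3′ on the strand of the gene, from RefSeq (GRCh38.p14), with runs of 3 or more G or of 3 or more C in capitals. AKIRIN1 (chr1:38991026-38991275, plus strand) was chosen after its test result was seen. SERPINB1 (chr6:2841864-2842113, minus strand), CKM (chr19:45322876-45323125, minus strand) and BMF (chr15:40108880-40109129, minus strand) had the lowest p on the higher side among the leading named windows defined below that hold a RefSeq entry of their own gene, and DHPS (chr19:12681371-12681620, minus strand), MED18 (chr1:28328790-28329039, plus strand) and DHX37 (chr12:124989132-124989381, minus strand) on the lower side. ATP10A had a lower p than CKM, but the RefSeq entry of ATP10A lies outside its window, and the entry inside, of another gene, was 52.7% G or C.
AKIRIN1: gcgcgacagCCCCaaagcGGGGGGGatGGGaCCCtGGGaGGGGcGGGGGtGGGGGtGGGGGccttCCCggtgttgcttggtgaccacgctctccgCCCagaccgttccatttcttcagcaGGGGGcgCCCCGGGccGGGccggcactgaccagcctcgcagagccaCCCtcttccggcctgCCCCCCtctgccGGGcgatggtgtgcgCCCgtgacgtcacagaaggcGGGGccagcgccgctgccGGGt
SERPINB1: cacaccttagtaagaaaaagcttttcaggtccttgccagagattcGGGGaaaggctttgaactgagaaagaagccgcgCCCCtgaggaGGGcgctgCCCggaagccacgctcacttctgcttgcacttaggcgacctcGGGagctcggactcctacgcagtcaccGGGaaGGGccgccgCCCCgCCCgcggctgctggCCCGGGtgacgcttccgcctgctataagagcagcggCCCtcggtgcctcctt
CKM: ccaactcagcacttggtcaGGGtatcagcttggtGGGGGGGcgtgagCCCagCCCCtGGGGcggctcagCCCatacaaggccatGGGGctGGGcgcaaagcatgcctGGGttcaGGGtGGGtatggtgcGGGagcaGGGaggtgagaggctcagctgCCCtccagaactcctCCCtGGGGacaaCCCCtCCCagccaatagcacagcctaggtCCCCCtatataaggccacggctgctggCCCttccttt
BMF: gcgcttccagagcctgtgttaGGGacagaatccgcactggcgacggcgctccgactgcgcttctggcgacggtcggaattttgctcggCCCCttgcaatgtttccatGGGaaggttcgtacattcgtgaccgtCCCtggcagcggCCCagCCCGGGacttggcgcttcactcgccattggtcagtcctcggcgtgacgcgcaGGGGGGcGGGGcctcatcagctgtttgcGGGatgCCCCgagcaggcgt
DHPS: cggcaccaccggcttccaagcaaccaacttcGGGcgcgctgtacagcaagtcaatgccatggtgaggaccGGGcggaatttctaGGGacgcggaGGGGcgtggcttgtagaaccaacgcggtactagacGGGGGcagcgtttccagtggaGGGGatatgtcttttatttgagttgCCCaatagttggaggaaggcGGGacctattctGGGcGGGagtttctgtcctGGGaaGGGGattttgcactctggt
MED18: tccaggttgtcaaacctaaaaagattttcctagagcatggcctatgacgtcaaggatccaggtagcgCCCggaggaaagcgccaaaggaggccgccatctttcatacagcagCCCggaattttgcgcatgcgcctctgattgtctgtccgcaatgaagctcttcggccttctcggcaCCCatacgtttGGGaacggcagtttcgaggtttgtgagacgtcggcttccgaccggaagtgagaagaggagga
DHX37: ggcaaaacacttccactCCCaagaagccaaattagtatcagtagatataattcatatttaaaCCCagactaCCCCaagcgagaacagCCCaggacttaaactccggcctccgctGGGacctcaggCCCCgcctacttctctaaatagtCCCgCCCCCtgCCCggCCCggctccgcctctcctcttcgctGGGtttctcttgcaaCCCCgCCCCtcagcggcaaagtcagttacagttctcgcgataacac
The AKIRIN1 stretch was 74.4% G or C and held 21 such runs covering 82 of its 250 bases. SERPINB1 was 63.6% G or C with 12 runs, CKM 64.4% with 20 runs and BMF 65.2% with 11 runs. On the lower side DHPS was 57.6% with 12 runs, MED18 54.4% with 4 runs and DHX37 55.2% with 13 runs. The next window in order on the lower side, ALDH9A1, was 67.2% with 16 runs and lay above SERPINB1, CKM and BMF in GC content.

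AKIRIN1 encodes a small nuclear protein. Its window (ENSG00000174574, hg38 chr1:38990222-38992222, plus strand, centred on the gene start and overlapping no other window) held 3 and 2 WT OGAP reads, 37 and 29 KD OGAP reads, 40 and 47 WT input reads, and 28 and 32 KD input reads. WT OGAP was the group that stood apart, with every other library at least at 28 reads. The KD effect was 3.60 ± 0.71 (SE; 95% interval 2.19 to 5.01; n = 2 libraries in each of 4 groups; edgeR adjusted p = 0.0303). The OGAP part was 3.23 ± 0.59 and the input change -0.37 ± 0.37, so that most of the effect lay in OGAP. OGAP over input was -3.03 in WT and 0.57 in KD cells on the log2 scale. All 16 ways of taking 1 library from each group gave a positive value, from 2.67 to 3.56. The size varied from 3.29 to 3.97 over 21 other settings, and the call held in 12 of them. It was lost with DESeq2 (adjusted p = 0.675), with limma-voom (adjusted p = 0.233), with a block for OGAP and input of the same state and number (edgeR adjusted p = 0.165), and in 6 of the 8 fits that left out 1 library (edgeR adjusted p from 0.0694 without KD OGAP 2 to 0.170 without KD OGAP 1). The other losses were without WT OGAP 2 (adjusted p = 0.111), WT input 2 (0.147), KD input 1 (0.0924) and KD input 2 (0.101).

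Next in order of p came a pair of windows that the naming by position left without a gene name. Both were lower in KD, and they were chosen here after their values were seen. The window of ENSG00000158169 on chromosome 9 (95425797 to 95427797) held 51 and 39 WT OGAP reads, 30 and 23 KD OGAP reads, 14 and 32 WT input reads, and 49 and 42 KD input reads, a KD effect of -2.36 ± 0.51 (edgeR adjusted p = 0.0629). The window of ENSG00000281331 on chromosome 2 (85573887 to 85575887) held 68 and 88, 50 and 48, 13 and 15, and 20 and 36 reads in the same order, a KD effect of -2.26 ± 0.49 (edgeR adjusted p = 0.0629). In both, OGAP was lower and input higher in KD libraries, with an input change of 1.14 and 1.16. Both passed with relative log expression scaling, without the count filter, with at least 10 reads in every input, and over windows that overlap no other.

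The precision of single windows was low. The median SE of the KD effect was 0.53, and the median 95% interval reached 1.05 to each side, a factor of 2.07. Only 620 windows (3.62%) had an interval lying wholly within a log2 difference of 1 either way. A window that missed the threshold is therefore not shown to be the same in both states.

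**Figure D1:**
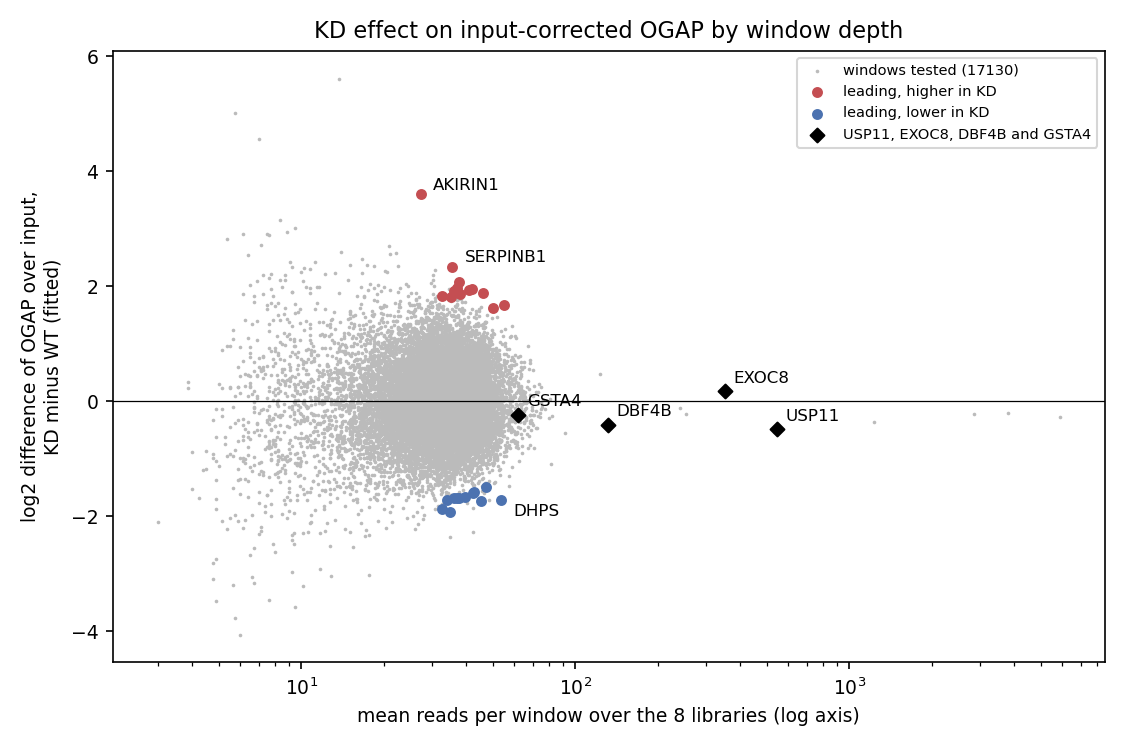
KD effect on input-corrected OGAP (y axis, fitted log2 difference, KD minus WT) against mean reads per window (x axis, log scale) for the 17130 windows tested (grey); red and blue points are AKIRIN1 and the 24 leading named windows, black diamonds USP11, EXOC8, DBF4B and GSTA4. AKIRIN1 lies at 3.60 and the diamonds near 0, while the spread widens toward windows with few reads.

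The leading named windows were the 12 on each side with the lowest p among those that carry a gene name, overlap no other window and had at least the median number of reads (6796 windows were eligible). None passed the adjusted threshold (edgeR adjusted p from 0.260 to 0.324), so they describe the ends of the range and not changed promoters. On the higher side the KD effect ran from 1.63 to 2.35, at SERPINB1, ATP10A, CKM, BMF, SIX5, CNNM4, HEYL, MYH9, HCN4, WIPF1, TSPAN17 and ZNF763. On the lower side it ran from -1.48 to -1.92, at DHPS, MED18, ZNF99, NLRP10, DHX37, ALDH9A1, NIPSNAP1, CES3, ARSD, SLC19A3, MSANTD3-TMEFF1 and FOLR2. All 24 kept one sign over the 16 combinations of libraries, against 21.7% of all windows (11.1% higher, 10.6% lower), but they were chosen for a low p in the same contrast. None of them changed sign in the 21 settings. SERPINB1 alone of the 24 passed the threshold in any of them, in 1. Libraries differ in depth, so whether groups overlap was judged for single windows on CPM with the scaling of the fit. CPM here means reads relative to all promoter reads of the library. A lack of overlap between 2 and 2 libraries has a two-sided exact permutation p of 0.333, so it is a description. The share of all windows without overlap is not given here.

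SERPINB1, an inhibitor of neutrophil serine proteases, held 15 and 2 WT OGAP reads, 40 and 48 KD OGAP reads, 55 and 53 WT input reads, and 34 and 38 KD input reads. WT OGAP lay under the other groups, and its libraries differed from each other. The KD effect of 2.35 ± 0.57 was 4.45 without WT OGAP 1 (edgeR adjusted p = 0.00354) and 1.48 without WT OGAP 2. CKM, the creatine kinase of muscle, held 9 and 15, 47 and 40, 70 and 87, and 52 and 49 reads in the same order of groups, with a KD effect of 1.88 ± 0.48. Scaled for depth, OGAP at CKM did not overlap between WT and KD, and neither did input, which went the opposite way. BMF, a pro-apoptotic member of the BCL2 family, held 12 and 14, 43 and 37, 62 and 63, and 27 and 37 reads, a KD effect of 1.97 ± 0.52. MYH9, the heavy chain of non-muscle myosin IIA, held 8 and 18, 50 and 41, 85 and 104, and 45 and 89 reads, a KD effect of 1.68 ± 0.48. At MYH9 the scaled inputs were 114 and 134 CPM in WT and 64.3 and 134 in KD and overlapped.

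DHPS takes part in making hypusine, the modified lysine of the translation factor eIF5A. Its window held 75 and 80 WT OGAP reads, 34 and 42 KD OGAP reads, 48 and 47 WT input reads, and 44 and 57 KD input reads. Scaled for depth, OGAP was lower in KD with no overlap, at 211 and 209 CPM in WT against 60.7 and 93.9, while the inputs overlapped. The KD effect was -1.71 ± 0.42, with an OGAP part of -1.46 and an input change of 0.25. MED18, a subunit of the Mediator complex that links transcription factors to RNA polymerase II, held 54 and 58, 60 and 38, 31 and 21, and 42 and 57 reads in the same order. Scaled for depth, OGAP was 152 and 152 CPM in WT and 107 and 84.9 in KD, input was higher in KD, and neither overlapped. The KD effect of -1.74 ± 0.44 was made up of an OGAP part of -0.65 and an input change of 1.08. DHX37, an RNA helicase of ribosome assembly, held 51 and 45, 42 and 32, 29 and 27, and 47 and 43 reads, a KD effect of -1.67 ± 0.46. ALDH9A1, an aldehyde dehydrogenase of carnitine synthesis, held 44 and 50, 30 and 26, 39 and 28, and 50 and 35 reads, a KD effect of -1.68 ± 0.48. On the scaled values neither OGAP nor input overlapped at DHX37 or ALDH9A1, although the ALDH9A1 inputs nearly met, with 52.4 CPM in the higher WT and 52.8 CPM in the lower KD library.

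In all 12 windows of each side the input moved against the OGAP part. The median OGAP part was 1.32 on the higher and -0.94 on the lower side, and the median input change was -0.59 and 0.72. Because the KD effect subtracts the input change, picking large KD effects favours windows of this kind, and no test was made of it. The median log2 ratio of OGAP to input was -1.65 in WT and 0.22 in KD cells on the higher side, and 1.69 in WT and 0.07 in KD cells on the lower side. These medians were far from 0 in WT and nearer 0 in KD. Picking large KD effects favours values from the state with the wider spread. Over all windows the SD of the ratio was 0.77 in WT and 0.52 in KD. Single KD libraries also lay away from 0, as at ATP10A (0.97) and ARSD (-0.80).

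**Figure D2:**
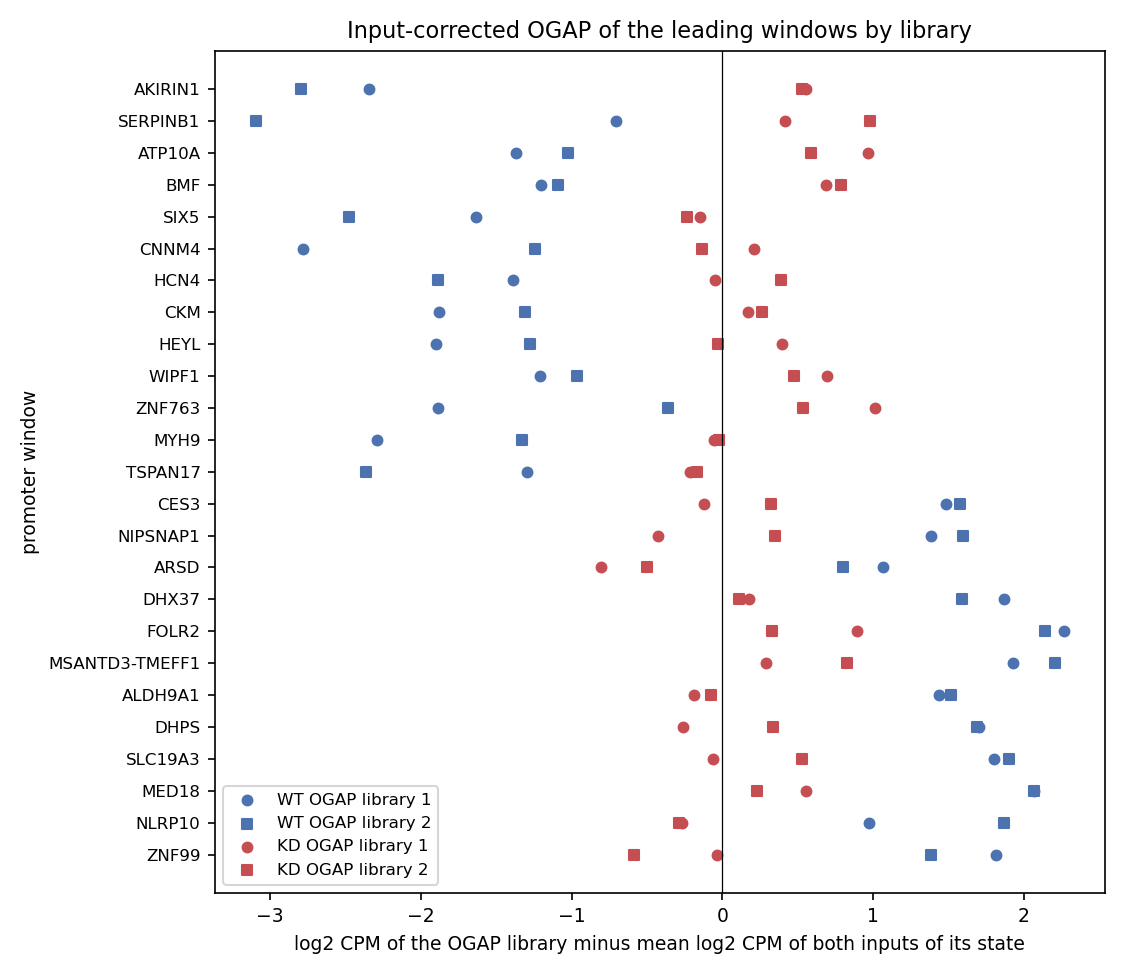
Input-corrected OGAP of AKIRIN1 and the 24 leading windows, as log2 CPM of each OGAP library minus the mean log2 CPM of both inputs of its state (x axis); circles are library 1 and squares library 2, blue WT and red KD, and rows are ordered by the KD effect. WT points lie away from 0 on either side and KD points mostly closer to it, and the SERPINB1 WT points lie at -0.70 and -3.10.

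Medians far from 0 in WT and nearer 0 in KD were also seen over the larger sets at an unadjusted p under 0.05. Among the 680 higher windows the median OGAP over input was -1.09 in WT and 0.25 in KD cells, and among the 715 lower windows it was 1.28 in WT and 0.00 in KD cells. The input change was larger than the OGAP part in 123 of the 680 (18.1%) and in 210 of the 715 (29.4%). Both parts pointed the way of the KD effect in 624 and 679 of them. These shares follow in part from the choice by p and are given as a description.

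A narrower spread of OGAP over input in KD cells was seen over all windows, with no choice by p. The distance between the quartiles of the log2 ratio ran from 1.01 to 1.14 over the 4 pairs of a WT OGAP and a WT input library, and from 0.726 to 0.847 over the 4 KD pairs, so the states did not overlap. The WT OGAP libraries had fewer reads than the KD OGAP libraries, and fewer reads widen a ratio. With the OGAP libraries thinned to the smallest OGAP total and the inputs to the smallest input total, the ranges were 1.01 to 1.16 and 0.755 to 0.858. The part of the ratio that recurred between disjoint pairs of libraries, taken as the square root of their covariance over windows, had an SD of 0.586 to 0.597 in WT and of 0.307 to 0.315 in KD cells. After thinning these SDs were 0.580 to 0.591 and 0.301 to 0.311. With 2 libraries a group, the exact permutation test of such a difference cannot give a p below 0.333, so these values are descriptive.

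The KD effect itself recurred only weakly. When the 8 libraries were cut into disjoint sets of 4, 1 from each group, Pearson's r of the KD effect between the sets over 17130 windows was 0.0625 to 0.116 over the 8 ways of cutting, and the recurring SD was 0.213 to 0.283. Each set holds different libraries, but the windows share base composition and depth. The OGAP over input ratio within a state recurred at 0.493 and 0.519 in WT and at 0.263 and 0.247 in KD cells.

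The median KD effect was higher in promoters of higher GC content. A RefSeq promoter entry of 300 bases lay inside 11826 of the tested windows (69.0%), which is too few for a check over all windows, so the values hold for windows with an entry. From the quintile (1 of 5 groups of near equal size) of lowest to that of highest GC the median KD effect was -0.13, -0.05, 0.02, 0.12 and 0.25. The highest quintile exceeded the lowest by 0.38. The share of windows higher in KD at an unadjusted p under 0.05 was 2.41% in the lowest and 6.55% in the highest quintile, against 3.97% of all windows. The share lower in KD was 4.44% in the lowest and 1.31% in the highest quintile, against 4.17%. Pearson's r of GC with the KD effect across the 11826 windows was 0.18; windows share the 8 libraries and are not independent replicates.

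Per library, input-corrected OGAP was lower in the GC-richest than in the GC-poorest quintile in both states. The difference, highest minus lowest quintile, was -0.59 and -0.75 in the WT libraries and -0.29 and -0.43 in the KD libraries, which did not overlap. Each OGAP library was set against the mean of both inputs of its state. The values of a state are therefore not independent, and their spread leaves out the variation between inputs. The same holds wherever input-corrected OGAP is given by library. KD exceeded WT by 0.31 (two-sided exact permutation test, p = 0.333, the smallest p that 2 against 2 libraries allow). The inputs differed between the states as well. In log2 CPM the highest quintile exceeded the lowest by 0.61 and 0.86 in WT input and by 0.56 and 0.48 in KD input, and by 0.16 and 0.00 in WT OGAP and 0.24 and 0.12 in KD OGAP. These values overlapped between WT and KD in OGAP and did not in input. From the lowest to the highest quintile the median OGAP part went from 0.02 to 0.13 and the median input change from 0.13 to -0.09. The GC difference is thus not one of OGAP alone. WT input 2 had the steepest slope, and without it the difference in the KD effect was 0.22 in place of 0.38. It ranged from 0.22 to 0.49 over the 8 fits that left out 1 library and was 0.35 after thinning. The part of library GC preference in the result was not tested.

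**Figure D3:**
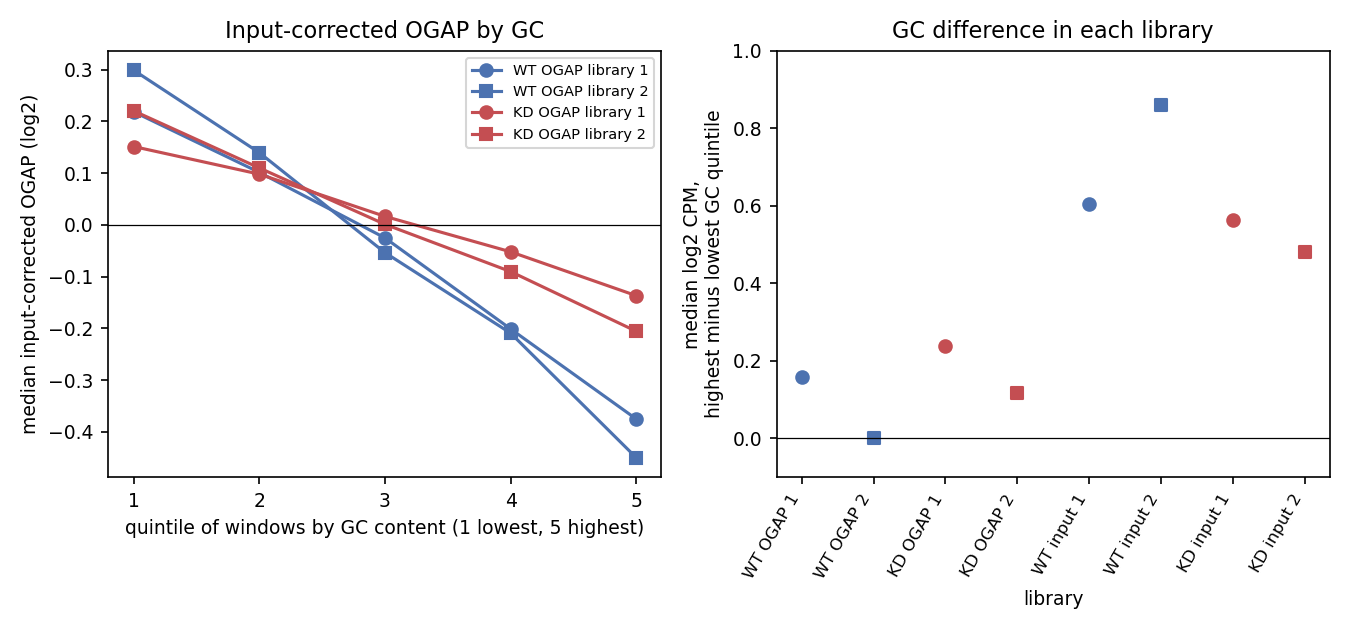
Left, median input-corrected OGAP (log2, y axis) of each OGAP library by quintile of GC content (x axis, 1 lowest); right, the difference in median log2 CPM between the highest and the lowest GC quintile (y axis) for each of the 8 libraries. The KD lines (red) are flatter than the WT lines (blue), and WT input 2 has the largest difference, 0.86.

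The GC order held within other groupings. Windows in the third with the fewest, the middle and the most reads gave differences between the extreme GC quintiles of 0.36, 0.39 and 0.46. Chromosome 19, which is rich in genes and in zinc finger clusters, gave 0.51 and the other chromosomes 0.38. By CpG content, the ratio of observed to expected CpG, the median KD effect was -0.07 in the lowest and 0.11 in the highest quintile, with 0.13 in the fourth. CpG content and GC content went together (r = 0.67 over the same windows).

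Sequence motifs were counted in the 300 bases of the same entries, from 250 before the start, on both strands of 11826 promoters. The SP-factor GC box GGGCGG was in 60.3% of promoters, with a median KD effect of 0.11 against -0.05 without it. The pattern of 4 runs of GGG with gaps of 1 to 7 bases, which can fold into a G-quadruplex, was in 31.8%, with 0.14 against 0.00. Both lie in GC-rich promoters, and within GC quintiles the differences took both signs, from -0.07 to 0.10 for GGGCGG and from -0.07 to 0.03 for the quadruplex pattern. Promoters with TATAAA (9.73%) had a median of -0.01 against 0.05 without it, yet within each of the 5 GC quintiles those with the motif had the larger median, by 0.00 to 0.27. The NF-Y motif CCAAT (35.6%), the ETS motif CCGGAAG (13.3%), the AP-1 motif TGACTCA (3.58%), the antioxidant response element TGACNNNGC (14.2%), the E-box CACGTG (8.70%) and the NRF1 motif (1.73%) differed by -0.04, -0.04, -0.04, 0.02, 0.03 and -0.02. Within GC quintiles each of these 6 took both signs. Motifs can overlap one another, and a match is a stretch of letters and no measured site.

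Position along the genome was described by chromosome and spacing. By chromosome the median KD effect ran from -0.11 on chromosome 19 (1233 windows) to 0.15 on chromosome 13 (284 windows) among the nuclear chromosomes, with 0.15 on chromosome 18 and 0.14 on chromosome 21. Chromosome 19 had 36 windows higher (2.92%) and 76 lower (6.16%) in KD at an unadjusted p under 0.05, against 3.97% and 4.17% of all windows. Its median lay below that of the other chromosomes in each of the 5 GC quintiles, with differences of -0.07 to -0.24. In WT libraries its median input-corrected OGAP was 0.24 and 0.22, and in KD libraries 0.13 and 0.15. By distance to the nearest other window, the median KD effect was -0.03 in the closest and 0.11 in the most isolated quintile. The 7 windows of the mitochondrial genome, which overlap one another, had a median of -0.23, and ND2, a subunit of respiratory complex I, had the lowest p of them (-0.53 ± 0.27, edgeR adjusted p = 0.614).

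Base excision and single-strand break repair genes include some that act on oxidised bases, which OGAP-seq reads, and others that act on other lesions or on strand breaks. Of 31 genes in the list, 27 had a named window and 18 were tested. The median KD effect over the 18 was -0.41 against 0.02 for all windows, 8 were positive, 0 were higher and 1 was lower at an unadjusted p under 0.05 (3.97% and 4.17% of all windows), and 0 passed the adjusted threshold. Without WT OGAP 2 the median was -0.17. The quartiles of the list were -0.74 and 0.46. Its median OGAP part was -0.10 and its median input change -0.11, and medians of the parts need not add up to that of the KD effect. The median OGAP over input was 0.11 in WT and 0.06 in KD cells. The windows of APEX1, APLF, APTX, LIG1, MBD4, NUDT1, TDG, TDP1 and TDP2 were removed by the count filter, and the remaining genes of the list had no named window.

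Among the glycosylases, OGG1, which removes 8-oxoguanine, held 40 and 50 WT OGAP reads, 48 and 34 KD OGAP reads, 68 and 42 WT input reads, and 54 and 56 KD input reads. Scaled for depth, OGAP at OGG1 was 113 and 131 CPM in WT and 85.7 and 76.0 in KD, with no overlap, while the inputs overlapped. The KD effect was -0.74 ± 0.43 (edgeR adjusted p = 0.668). Without WT input 1 it was -1.16, and without WT input 2 it was -0.44. NEIL1, which removes oxidised pyrimidines, was the member at an unadjusted p under 0.05, with 46 and 39 WT OGAP reads, 38 and 39 KD OGAP reads, 29 and 51 WT input reads, and 33 and 57 KD input reads. Its KD effect was -0.92 ± 0.46 (edgeR adjusted p = 0.613). Scaled OGAP was 129 and 102 CPM in WT and 67.8 and 87.2 in KD, with no overlap, while the inputs overlapped. With 2 libraries a group, the lack of overlap at OGG1 and NEIL1 is a description and does not show a change. SMUG1 and UNG, which remove uracil, were at -0.84 ± 0.51 and 0.39 ± 0.48. MUTYH, which takes out adenine paired with 8-oxoguanine, was at -0.81 ± 0.79, NTHL1 at -0.73 ± 1.12, NEIL2 at 0.01 ± 0.50 and NEIL3 at 0.49 ± 0.65. The sign changed in 12 of 21 settings at NEIL2, in 2 at NEIL3, which ranged from -0.43 to 1.42, and in 1 at UNG. MPG, the alkyl-adenine glycosylase, was at 1.56 ± 0.88 on 1 and 8 WT OGAP reads, and at 0.79 without WT OGAP 1 and 3.59 without WT OGAP 2.

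Among the enzymes that process strand breaks, PARP1 and PARP2, which make poly(ADP-ribose) at breaks, were at -0.47 ± 0.42 and -0.60 ± 0.49, and PARP3 was at 0.25 ± 0.99. HPF1, the cofactor that steers PARP1 toward serine, was at 1.24 ± 0.68 on 9 and 3 WT OGAP reads against 31 and 16 in KD OGAP. Without WT OGAP 1 it was at 2.28 and without WT OGAP 2 at 0.61. ADPRS, which takes ADP-ribose off serine, was at 0.61 ± 0.48. The polymerases POLB and POLL were at 0.53 ± 0.59 and -0.34 ± 0.47, the endonuclease APEX2 at -0.48 ± 0.57 and the ligase LIG3 at -1.03 ± 1.32. PARP3 changed sign in 5 settings, and LIG3 in 1, with a range from -1.97 to 4.51. The edgeR adjusted p of every gene in this group was at least 0.645. The windows of MUTYH, NTHL1, MPG, APEX2, LIG3 and PARP3 overlapped a neighbour, and their counts are uncertain.

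Other repair genes had medians on the same side of 0. Nucleotide excision and mismatch repair genes had a median of -0.40 over 13 tested windows, and of -0.18 without WT input 1. Of the 13, 0 were higher and 1 was lower at an unadjusted p under 0.05, against 3.97% and 4.17% of all windows. The lower one was ERCC3, a helicase of TFIIH, at -1.18 ± 0.53 (edgeR adjusted p = 0.559; -1.69 without WT OGAP 1 and -0.34 without WT OGAP 2). Double-strand break repair genes had a median of -0.21 over 16, with 0 higher and 2 lower, and -0.03 without KD input 1. These were RNF168, a ubiquitin ligase at breaks, at -1.32 ± 0.50, and SHLD1, a shieldin subunit, at -1.23 ± 0.52. All 3 repair lists kept a negative median in each of the 19 settings run for lists. By library, the median input-corrected OGAP of base excision genes was -0.07 and 0.32 in WT and 0.10 and -0.002 in KD, which overlapped. For nucleotide excision and mismatch repair it was 0.04 and 0.16 in WT and 0.19 and 0.13 in KD, which also overlapped. For double-strand break repair it was 0.53 and 0.70 in WT and 0.16 and 0.43 in KD, with no overlap. Libraries of a state share its inputs in these values, so this is a description. Median GC in each of the 3 repair lists was 63.3%, that of all tested windows with an entry.

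The immediate early and stress response genes, which growth factors and stress switch on within minutes, had the highest median of the 29 lists. It was 0.56 over 31 windows, 22 of them positive, with 4 higher and 0 lower at an unadjusted p under 0.05 (12.9% against 8.14% of all windows) and 0 past the adjusted threshold. The median input-corrected OGAP of the list was -0.55 and -0.65 in the WT and -0.17 and -0.11 in the KD libraries, which did not overlap. With the inputs shared within a state, these values are not independent. The median OGAP part was 0.25 and the median input change -0.22. The list median was 0.39 to 0.62 over the 19 settings. Median GC was 69.3% in the 21 windows with an entry, above the 63.3% of all windows, and its part in the list's median was not tested.

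JUND, an AP-1 subunit, held 14 and 10 WT OGAP reads, 29 and 25 KD OGAP reads, 74 and 81 WT input reads, and 56 and 34 KD input reads. Scaled for depth, OGAP was higher and input lower in KD, with no overlap in either, and the KD effect was 1.34 ± 0.52 (edgeR adjusted p = 0.499). SRF, the serum response factor, held 14 and 16, 32 and 27, 66 and 67, and 41 and 41 reads in the same order, a KD effect of 1.06 ± 0.51 (adjusted p = 0.595). DUSP4, a phosphatase of MAP kinases, was at 1.16 ± 0.54, and NR4A3, an orphan nuclear receptor, at 1.14 ± 0.57.

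**Figure D4:**
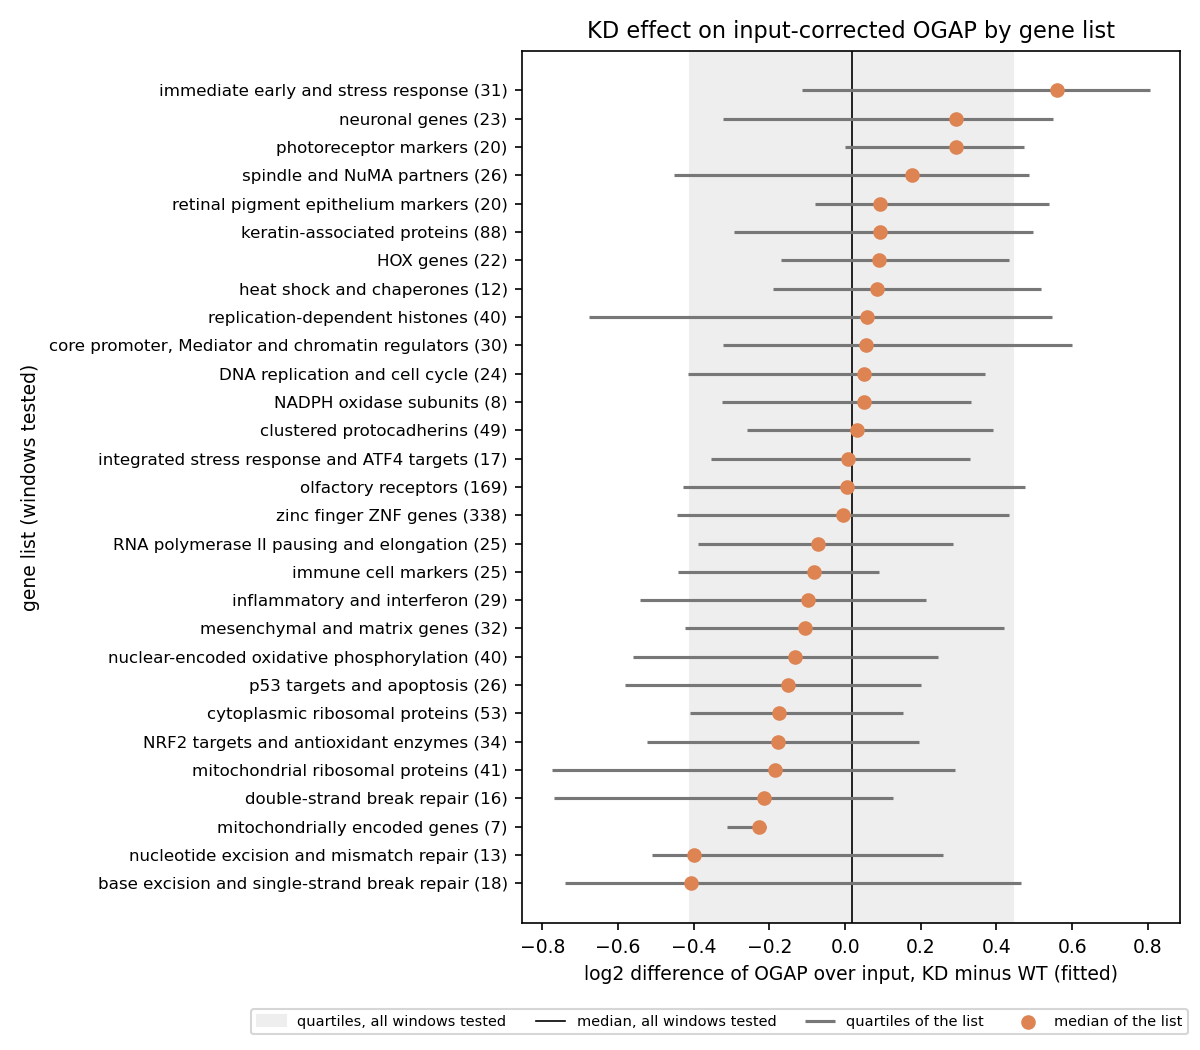
Median KD effect (orange points) and quartiles (grey lines) of the 29 gene lists, with the number of windows tested in brackets; the x axis is the fitted log2 difference of OGAP over input, KD minus WT, and the band and black line are the quartiles and the median of all windows tested. The immediate early list lies at 0.56, the 3 repair lists at -0.21 to -0.41, and 28 of the 29 medians lie inside the quartiles of all windows.

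Lists tied to oxidative stress were near or below 0. NRF2 targets and antioxidant enzymes had a median of -0.18 over 34 windows, and of -0.07 without WT input 2, with 0 higher and 2 lower at an unadjusted p under 0.05 (3.97% and 4.17% of all windows). These were ME1, which makes NADPH, at -1.15 ± 0.52 and PRDX3, a mitochondrial peroxidase, at -0.86 ± 0.41. NADPH oxidase subunits, which make superoxide, had a median of 0.05 over 8 windows, with 1 higher, at NCF4. NCF4, a cytosolic subunit, held 17 and 18 WT OGAP reads, 83 and 59 KD OGAP reads, 58 and 63 WT input reads, and 53 and 62 KD input reads. Scaled for depth, its inputs overlapped and its OGAP libraries did not, and the KD effect was 1.47 ± 0.44 (edgeR adjusted p = 0.324). Nuclear-encoded oxidative phosphorylation genes had a median of -0.13 over 40 (1 higher, 3 lower), with NDUFS4 at -1.47 ± 0.58 and SDHB at -1.08 ± 0.44. p53 targets and apoptosis genes had -0.15 over 26 (0 higher, 3 lower), with MDM2 and MDM4, both inhibitors of p53, and the cell cycle inhibitor CDKN1A. Their 95% intervals were -2.21 to -0.24, -1.84 to -0.17 and -1.96 to -0.05. These genes were named for an unadjusted p under 0.05, so that the intervals leave out 0 follows from the choice. Their edgeR adjusted p was 0.519, 0.525 and 0.595, and none is shown to be lower. Without WT OGAP 1 the p53 median was -0.01. The integrated stress response list had 0.01 over 17 (2 higher, 1 lower), with DDIT4 at 0.96 ± 0.41, CEBPB at 1.18 ± 0.56 and EIF2AK1, a kinase of eIF2, at -1.02 ± 0.48. Heat shock genes had 0.08 over 12 (1 higher, 0 lower), with HSPH1 at 1.58 ± 0.63.

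RNA polymerase II pausing and elongation genes had a median of -0.07 over 25 (0 higher, 3 lower), with POLR2D at -1.30 ± 0.46, NELFCD, a subunit of the pausing factor NELF, at -1.01 ± 0.47, and POLR2L at -2.96 ± 1.06 on 3 and 2 WT input reads in an overlapping window. The median turned to 0.09 without KD OGAP 2. For this list and those that follow here, the counts stand beside 3.97% higher and 4.17% lower over all windows. Core promoter, Mediator and chromatin regulators had 0.05 over 30 (2 higher, 1 lower), with the TFIID subunit TAF3 at 1.59 ± 0.56, the chromatin remodeller CHD4 at 1.06 ± 0.53 and MED18 lower as above. Spindle and NuMA partner genes had 0.18 over 26 (0 higher, 2 lower), with TPX2, a spindle assembly factor, at -1.12 ± 0.53. The spindle median was 0.04 without KD input 1. NUMA1 itself held 6 and 5 WT OGAP reads, 11 and 4 KD OGAP reads, 2 and 1 WT input reads, and 8 and 16 KD input reads. Its window overlaps a neighbour, the OGAP part was -0.02, and the KD effect of -3.06 ± 1.31 (edgeR adjusted p = 0.540) lay in the input. These counts say nothing of NuMA level.

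Gene families and cell type lists gave the following values. Of cytoplasmic ribosomal protein genes, 2 were higher and 3 lower of 53 (median -0.18), with RPS15A at -1.36 ± 0.52. Of mitochondrial ribosomal protein genes, 2 were higher and 4 lower of 41, against 3.97% and 4.17% of all windows (median -0.19, which was -0.05 without KD input 1 and -0.34 without KD OGAP 2), with MRPS2 at 1.59 ± 0.60. Zinc finger ZNF genes numbered 338, with 18 higher and 20 lower (median 0.00, 11.2% against 8.14%), among them ZNF644 at 2.71 ± 0.74 on 8 and 1 WT OGAP reads and ZNF592 at 1.85 ± 0.58. ZNF644 was at 4.85 without WT OGAP 1, past the threshold (edgeR adjusted p = 0.0443), and at 1.84 without WT OGAP 2. Olfactory receptor genes had 5 higher and 4 lower of 169 (median 0.00), keratin-associated protein genes 2 and 4 of 88 (0.09), clustered protocadherins 3 and 0 of 49 (0.03), replication-dependent histones 1 and 1 of 40 (0.06) and HOX genes 0 and 0 of 22 (0.09). The retinal pigment epithelium list had 14 positive of 20, quartiles of -0.08 and 0.54, and 0 higher and 2 lower (median 0.09, and -0.15 without WT input 2), TYR at -1.51 ± 0.63 and TTR at -1.31 ± 0.65. Photoreceptor markers had 0 and 1 of 20 (median 0.29, and 0.14 without WT OGAP 1) and neuronal genes 2 and 2 of 23 (median 0.29, and 0.04 without WT OGAP 1). Immune markers, inflammatory genes, and DNA replication genes had 0 in either direction of 25, 29 and 24 (medians -0.08, -0.10 and 0.05), and mesenchymal genes 1 and 1 of 32 (-0.11). No window of any of the 29 lists passed the adjusted edgeR threshold with all 8 libraries. The medians of 13 lists changed sign in at least 1 setting and those of 16 did not.

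Of the windows singled out by earlier results, 4 with more OGAP than input in both states showed no detectable KD effect. This does not extend to all such windows. ENSG00000281331, described above, had OGAP over input of 3.51 in WT and 1.24 in KD cells, and a KD effect of -2.26. USP11, a deubiquitinase gene on the X chromosome, held 1338 and 1052 WT OGAP reads, 990 and 761 KD OGAP reads, 77 and 55 WT input reads, and 39 and 49 KD input reads. OGAP over input was 5.23 in WT and 4.74 in KD cells on the log2 scale, and the KD effect was -0.48 ± 0.31 (95% interval -1.09 to 0.13; edgeR adjusted p = 0.702). EXOC8, an exocyst subunit in an overlapping window, held 832 and 694, 688 and 525, 42 and 15, and 13 and 13 reads in the same order, a KD effect of 0.18 ± 0.41 (-0.63 to 0.99), which was -0.77 without WT input 1 and 0.73 without WT input 2. DBF4B, a regulator of the CDC7 kinase, held 179 and 221, 151 and 270, 63 and 58, and 59 and 56 reads, a KD effect of -0.41 ± 0.37 (-1.14 to 0.33), which was 0.08 without KD OGAP 1. GSTA4, a glutathione transferase that clears lipid peroxidation products, was at -0.23 ± 0.43 (-1.09 to 0.63), and its sign changed in 3 of 21 settings. The OGAP part was -0.91 ± 0.18 at USP11 and -0.79 ± 0.20 at EXOC8, and the input change was -0.43 ± 0.25 and -0.97 ± 0.37. None of the 4 intervals of the KD effect excludes a small change in either direction.

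The coverage profile around gene starts, a second deposited readout of the same libraries, was lower in OGAP than in input at the start, relative to the flanks, in both states, and less so in KD. For each library the mean of the central 1000 positions was divided by that of the outer positions, and the log2 ratio to the inputs of its state was taken. It was -0.50 and -0.54 in the WT and -0.18 and -0.29 in the KD libraries, which did not overlap. Here too both values of a state share its inputs and are not independent. KD exceeded WT by 0.28, a factor of 1.22 (two-sided exact permutation test, p = 0.333, the smallest possible). Over the central 500 and 2000 positions the difference was 0.35 and 0.20, and over the 8 values that left out 1 library it was 0.22 to 0.35. Around gene ends it was 0.12. The inputs themselves were raised at starts, by ratios of 1.17 and 1.28 in WT and 1.16 and 1.13 in KD, and the OGAP ratios were 0.861 and 0.841 in WT and 1.01 and 0.933 in KD. The profile comes from the same reads and is not independent of the window counts.

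**Figure D5:**
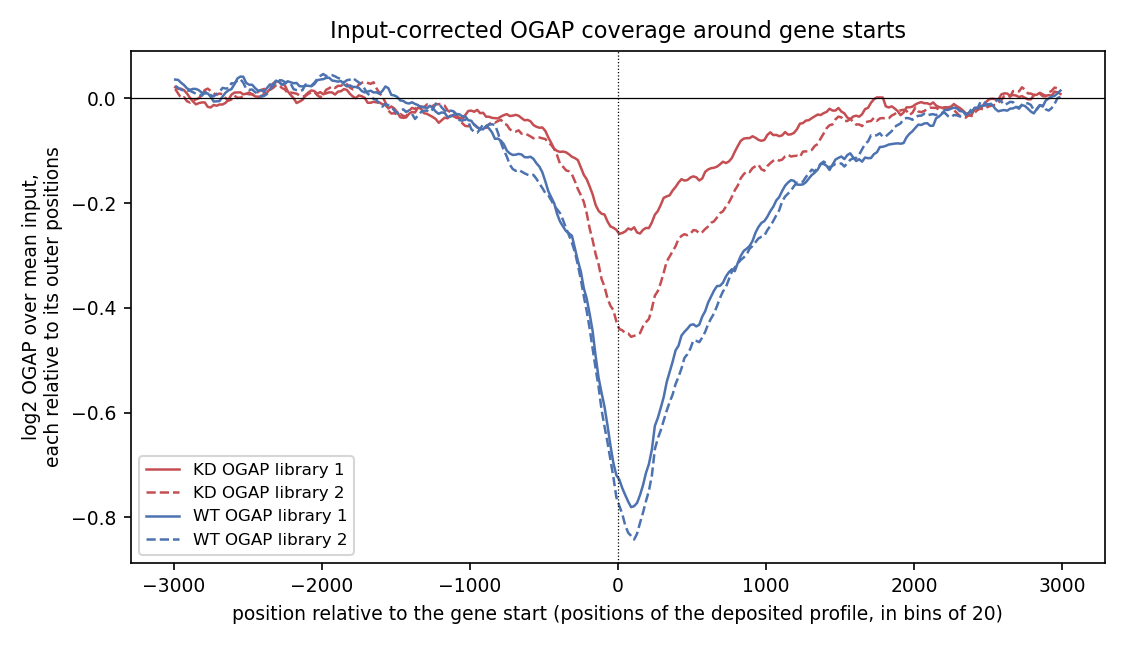
Input-corrected OGAP coverage around gene starts (y axis, log2 ratio of each OGAP library to the mean of the inputs of its state, each relative to its outer positions; x axis, position relative to the start in the deposited profile). WT libraries (blue) reach -0.81 on average at position 110 and KD libraries (red) -0.35 at position 130, and the lines meet toward both edges.

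The deepest point of the WT mean, at 110 positions past the start, was also where KD and WT differed most, by 0.46. At position -1990 the difference was at its lowest, -0.03.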

How the data were processed

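OGAP and input DNA of WT and KD RPE1 cells was sequenced by the authors, 2 libraries in each of 4 groups. The deposited counts are whole reads per promoter window of 2001 bp; per the submitters' processing notes, BWA 0.7.17-r1188, bedtools, featureCounts and MACS2 were used with hg38. The coverage signal deposited by the authors gives 6000 positions around gene starts and ends, on a scale and spacing not given in the sources used here; each library was divided by the mean of its outer 1000 positions on each side. The file over exons and flanks was not used.

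Promoter reads per library were 368593 to 560174 in OGAP and 645276 to 771138 in input, with 19 to 31 and 36 to 42 reads in the median tested window. Replicates differed beyond sampling noise (chi-square per degree of freedom 1.90 to 2.14). Windows were named by position against RefSeq (GRCh38.p14) where the centre lay within 500 bp of 1 gene start on the same strand: 14913 of 19957 (74.7%), against 0.917% after a shift of 200 kb. No read fell in 452 windows, 2827 windows did not pass the filter, and 3741 overlap another, so that their counts are uncertain.

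Counts were fitted with edgeR 4.0.16 (R 4.3.3; TMM, filterByExpr, 4 group means, quasi-likelihood F test, Benjamini-Hochberg over 17130 windows), and the script was tested on simulated data. SE is the size of the log2 difference over the square root of F. The spread behind it was mostly shared over windows (98.4 prior against 4 residual degrees of freedom). An SE thus says little of how far the libraries of that window differed. Log2 CPM used a prior count of 2. Alternatives were other scalings and filters, replicate blocks, DESeq2 1.42.0, limma-voom 3.58.1, each library left out, subsets of windows, and thinning. Named were windows past the threshold, 12 leading windows on each side, windows singled out by earlier results, all tested base excision repair genes, and up to 4 members at unadjusted p under 0.05 (or the lowest p) of each other list. The members, lists and rules were chosen with earlier results of these data known.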

Additional observations from a re-analysis of the deposited data

Results flagged for a closer look

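The ratio of OGAP to input at the AKIRIN1 window differed between KD and WT cells by the test of the difference itself, with a log2 difference of 3.60 (edgeR adjusted p = 0.0303; 16 of 16 combinations of libraries positive). It rests on 3 and 2 reads in the WT OGAP libraries, and the report gives the settings in which the call was lost.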

How the results depend on the processing

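The count of windows past the adjusted threshold, 1 with the settings used, was 3 with relative log expression scaling, without the count filter, with at least 10 reads in every input and over windows that overlap no other, 2 after thinning to equal depth, and 0 with DESeq2, with limma-voom and with the replicate block within state. It was 0 to 6 when 1 library was left out, with 6 without WT OGAP replicate 1. The replicate block over all 8 libraries left 1 window, AKIRIN1 (edgeR adjusted p = 0.0497), with 1308 windows at an unadjusted p under 0.05. Replicate numbers are only names here: replicate differences correlated between groups by -0.0397 to 0.0245. The count at an unadjusted p under 0.05, 1395, was 590 with DESeq2, 1391 with limma-voom and 1079 to 1580 when 1 library was left out. Its split followed the scaling, with 594 higher and 788 lower under relative log expression and 787 and 626 under total reads. The GC difference of 0.38 was 0.38 under the replicate block and 0.22 to 0.49 when 1 library was left out, lowest without WT input replicate 2. The cause of these shifts was not tested. The gene start difference of 0.28 was the same under the replicate block. Thinning, leaving out the mitochondrial windows and the left-out libraries at gene starts were added after the data were seen. With a median of 19 to 31 reads per OGAP library and window, the 95% interval of the median window spans a factor of 2.07 to each side. Smaller differences could not be told from 0 there. That interval is not adjusted for the number of windows, and larger differences could also miss the threshold. KD effects of -2.36 and -2.26 had an edgeR adjusted p of 0.0629.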
